A study of Kluyveromyces marxianus and Kluyveromyces lactis with 30 samples.

Results

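In the yeast Kluyveromyces lactis, 62 of 5320 genes (1.17%) were chosen for being higher in caffeine while staying close to the control level in heat and in the alkylating agent methyl methanesulfonate (MMS). The choice used counts per 1e6 raw gene counts of a library (CPM), averaged over 3 libraries. For each gene, r was the log2 ratio of stress to control, each with 1 CPM added, minus the median of that ratio over the 4561 genes with at least 10 CPM in controls. Members had an r of at least 1 in caffeine, an r between -0.58 and 0.58 in heat and in MMS, and at least 10 CPM in caffeine. The caffeine, heat and MMS values below therefore describe the choice and are not tested. Ethanol was left out of the choice, so the ethanol libraries supply the held-out comparison. The members' share of calls there was not tested against that of all genes. The control libraries were used by both the choice and the ethanol comparison. The limits on heat and MMS hold group means near the control level and do not exclude smaller changes. In heat 10 members were called higher and 16 lower, against 32.3% and 38.7% of all tested genes. In MMS 15 were called higher and 7 lower, against 35.7% and 35.9%. In ethanol 27 of the 62 members (43.5%) were called higher and 16 (25.8%) lower, where 33.1% and 32.3% of all tested genes were. The other 19 members were not called.

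The strain was K. lactis yLB72, and every group carried the same genotype. Cells from overnight cultures in YPD, a rich glucose medium, were diluted and grown under each condition before collection. The groups were controls at 28C, heat at 39C, MMS, ethanol and caffeine. The labels give no dose for the added agents and no temperature for their cultures, and each group had 3 biological replicates. RNA was captured by its poly(A) tail, so CPM are shares of the captured RNA, and a change in RNA per cell cannot be told apart from a change in the rest of the transcriptome. Reads of the ethanol libraries were assigned to genes by a different program, and over exons rather than coding parts. Ethanol and counting method therefore cannot be told apart.

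Caffeine is a purine analog that in baker's yeast inhibits TORC1, the kinase complex that couples nutrient supply to growth, and activates the cell wall integrity pathway. It also inhibits cyclic AMP phosphodiesterases, and yeast cells export it through drug efflux pumps. Lists for such pathways held 207 gene symbols in 8 lists, and 0 of them occur among the K. lactis IDs. Only 62 of the 5320 K. lactis IDs carry a name, so the symbols could not be looked up among the rest. Of the named genes 1 is a member, MFA1. The reference gene table at hand was of K. marxianus and held 0 of the member IDs. It could not supply functions for K. lactis genes, so the other members are given without one.

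Each library held 16.9 to 50.9 (1e6) gene counts outside ethanol, and each ethanol library 39.0 to 94.4 (1e6). Reads on no feature took 6.94% to 8.04% in caffeine, 6.04% to 6.95% in heat, 4.68% to 5.23% in MMS and 5.45% to 5.52% in controls. Their part in the member values was not tested. MMS and ethanol libraries lay farther from their own group than the others did. The root mean square log2 distance to the own group was 0.377, 0.349 and 0.518 for MMS replicates 1, 2 and 3 and 0.374 to 0.490 for ethanol. It was 0.170 to 0.272 for the control, heat and caffeine libraries.

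As a sum, the members took 0.480%, 0.511% and 0.513% of gene counts in control replicates 1, 2 and 3. In caffeine the shares were 1.85%, 1.77% and 1.81%. Every caffeine library lay far above every control, as the choice requires, and the mean summed level was 3.61-fold that of controls. The median gene with at least 10 CPM in controls was itself 1.37-fold higher in caffeine on this unscaled measure. In heat the members took 0.616% ± 0.0164 (SD, n = 3) and in MMS 0.790% ± 0.0293, which are 1.23-fold and 1.57-fold the control share. The median gene stood at 1.17-fold in heat and 1.72-fold in MMS on the same unscaled measure. In ethanol, the members took 0.661%, 0.723% and 0.655%. These shares all lay above the controls (2-sided exact permutation p = 0.1, the smallest that 3 against 3 libraries allow), and the ratio of 1.35 was close to the 1.38-fold of the median gene. The 3 members highest in a group, which were not the same 3 in each, held 47.4% of the summed level in controls, 43.0% in caffeine and 34.4% in ethanol.

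**Figure D1:**
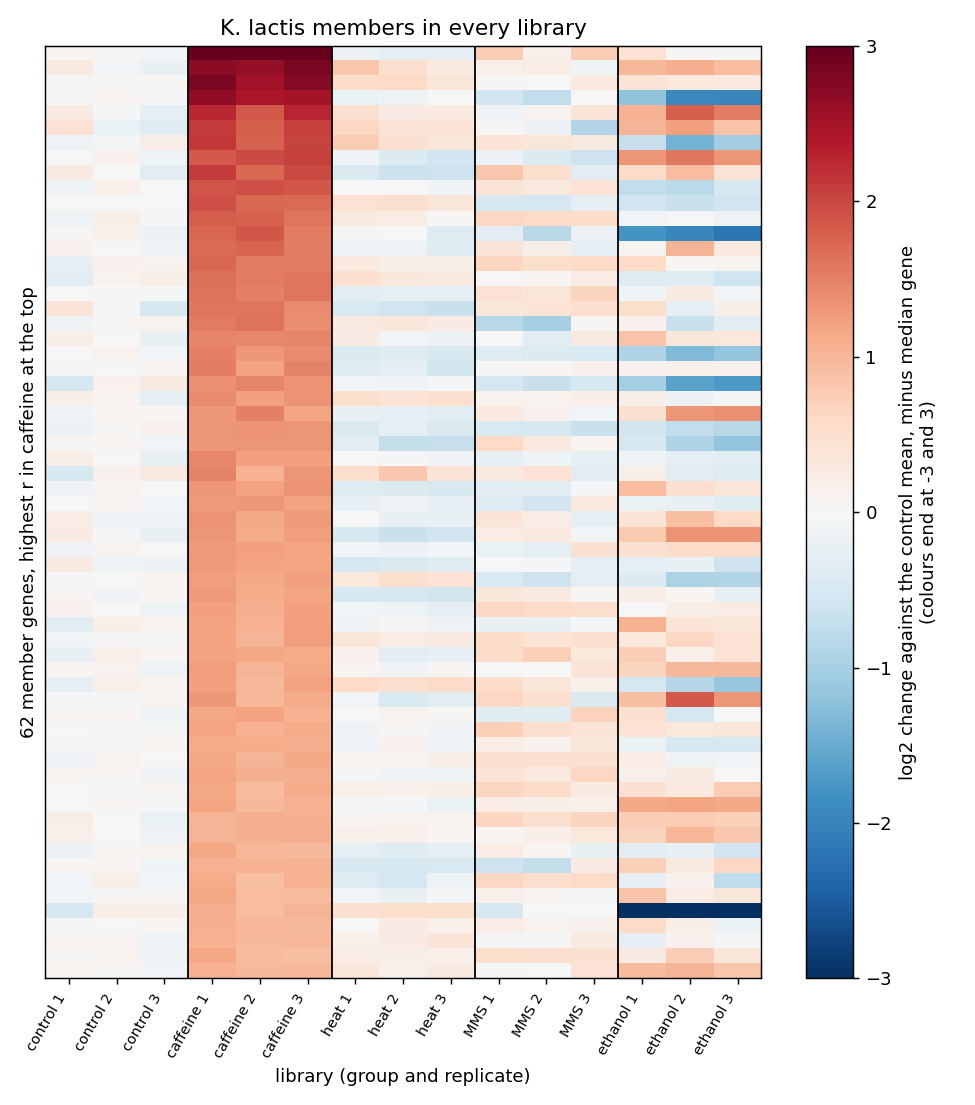
Log2 change against the control mean, minus that of the median gene, for 62 members (rows, highest caffeine r at the top) in 15 K. lactis libraries (columns, by group and replicate). The caffeine columns are raised throughout by the choice of genes, the control columns stay within 0.504 of the control mean, and the ethanol columns hold genes on both sides of it.

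In caffeine, r ran from 1.00 to 3.80 with a median of 1.25, and 19 members reached 1.5. The edgeR quasi-likelihood fit over all 5124 tested genes gave folds of 2.00 to 14.4 with a median of 2.44. By the choice itself, 62 of the 62 members were called higher in caffeine (adjusted p under 0.05), where 31.5% of all tested genes were. Nothing is read from that count. The members just inside the limit had r of 1.00 and 1.01 (means of 3 libraries), and the genes just outside it had 0.994 and 0.991. A single library often fell on the other side of the limit. With r taken per library, 51 members had 1 or more in each of the 3 caffeine libraries.

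KLLA0B09064g (chromosome 2, 792849 to 793973, minus strand) had the largest r. Its level was 13.9, 13.8 and 12.8 CPM in controls and 269, 278 and 276 CPM in caffeine. The heat libraries had 14.4, 13.0 and 12.7 CPM, and the MMS libraries 41.1, 27.8 and 36.9 CPM. Caffeine thus stood far above all other libraries, and MMS replicate 2 below the other MMS libraries. In ethanol KLLA0B09064g had 23.2, 21.6 and 18.3 CPM. Although each of these is above every control in raw CPM, the scaled fit gave a log2 change of 0.15 ± 0.15 (SE; edgeR adjusted p = 0.367), so no difference was detected. Coordinates follow the ethanol files, whose genome build none of the sources used here names.

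KLLA0F00682g (chromosome 6, 58631 to 59137, minus strand), with 507 coding bases, had the second-largest r at 2.72. Its controls were at 11.4, 8.53 and 7.86 CPM and its caffeine libraries at 89.2, 85.0 and 99.5 CPM. In ethanol the levels were 24.2, 32.4 and 25.3 CPM. All ethanol libraries lay between the controls and the caffeine libraries, and the gene was 2.07-fold higher than in controls after scaling (log2 change 1.05 ± 0.16 SE, edgeR adjusted p = 5.97e-05).

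MFA1 encodes, in baker's yeast, the precursor of a-factor, the lipid-modified peptide pheromone that cells of mating type a secrete. The K. lactis gene has 102 coding bases (chromosome 5, 1149528 to 1149629, minus strand). It was at 3.61, 3.96 and 3.05 CPM in controls and at 19.3, 21.3 and 17.6 CPM in caffeine, with an r of 1.72. Heat gave 4.59, 4.23 and 3.01 CPM and MMS 5.33, 3.59 and 5.31 CPM. In raw CPM these overlap the controls or lie just above them, far under caffeine. Relative to the median gene, MFA1 had an r of -0.10 in heat and -0.44 in MMS. It was called in neither (edgeR adjusted p = 0.438 in heat and 0.114 in MMS). In ethanol MFA1 was at 0.615, 0.784 and 0.351 CPM, from 24, 74 and 16 counts. Every ethanol library lay below every control. After scaling the gene was 8.38-fold lower (log2 change -3.07 ± 0.26 SE, edgeR adjusted p = 3.21e-07). Its r in ethanol was -1.98, smaller in size because 1 CPM is added to both levels. MFA1 thus stood above the controls in caffeine, as the choice required, and below them in ethanol, where the counting method also differed. The second a-factor gene, MFA2, is not a member: it had 4.09, 4.52 and 5.13 CPM in caffeine and 2.61, 3.12 and 2.46 CPM in controls, an r of 0.13. In ethanol MFA2 was at 3.36, 5.07 and 4.04 CPM, an r of 0.00.

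**Figure D2:**
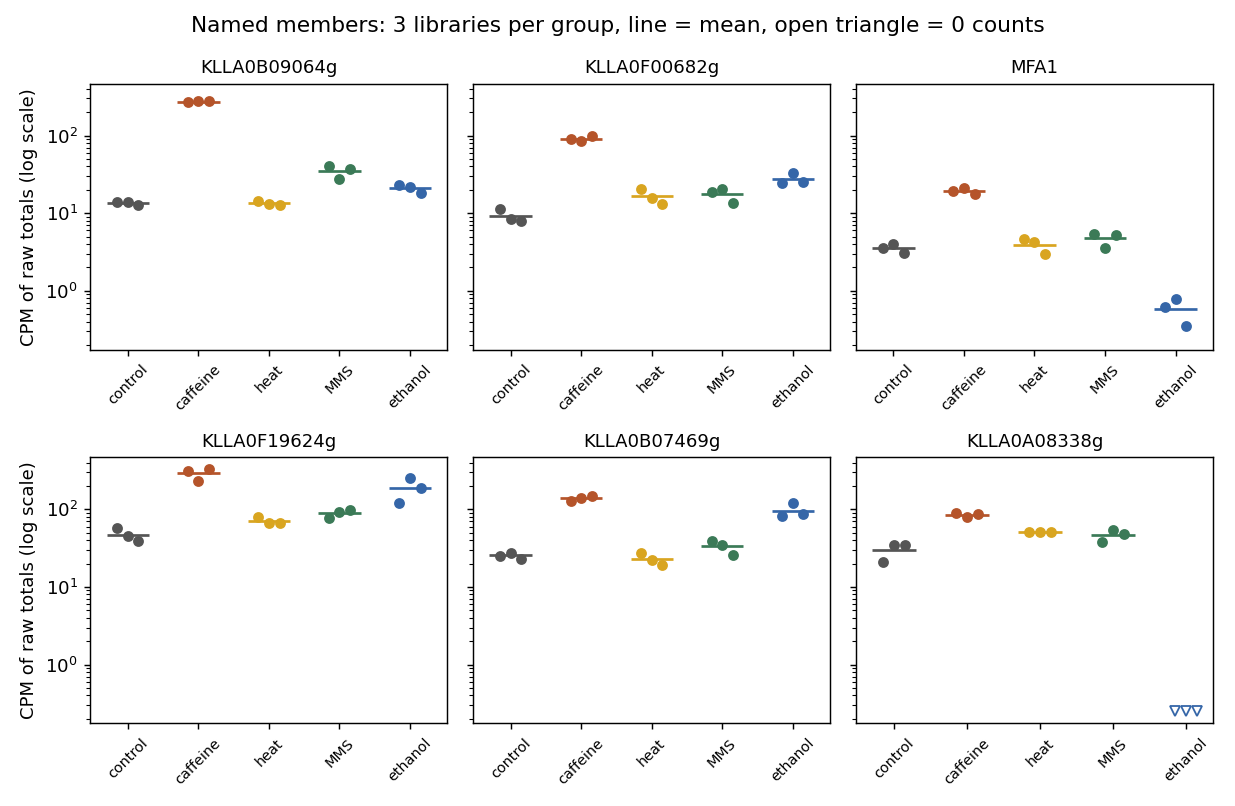
CPM of raw totals on a log axis for the 6 members given by ID, with a point per library, a line at the mean of 3 and open triangles for 0 counts. Caffeine is the highest group in all 6 panels. Ethanol sits near caffeine for KLLA0F19624g and KLLA0B07469g, and below the controls for MFA1 and KLLA0A08338g.

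Among the other strong members, the third by r had 4578 coding bases and lies on chromosome 6. It had 94.8, 99.1 and 101 CPM in controls and 955, 765 and 928 CPM in caffeine. In ethanol it had 163, 187 and 164 CPM, which after scaling is 1.24-fold above controls (edgeR adjusted p = 0.0172). The fourth, with 396 coding bases on chromosome 2, moved the other way in ethanol. It went from 29.8, 31.8 and 29.7 CPM in controls to 269, 231 and 244 CPM in caffeine, and stood at 15.9, 11.7 and 9.97 CPM in ethanol. Its ethanol libraries all lay below its controls, with a log2 change of -1.76 ± 0.21 (SE, edgeR adjusted p = 6.36e-06). The 4 members with the largest r thus included 2 that were called higher in ethanol, 1 that was called lower and 1 that was not called.

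Per kilobase of coding length, the typical member stood below the typical gene in controls and above it in caffeine. The members' median was 22.7 CPM per kb in controls against 38.5 over all tested genes, and 93.5 against 53.0 in caffeine. The choice used these control and caffeine levels, so the medians only describe the chosen genes. The highest member per length in controls lies on chromosome 1 (335548 to 337287). It had 1188, 1219 and 1286 CPM in controls and 3996, 3682 and 3978 CPM in caffeine. Its ethanol libraries, at 1148, 977 and 893 CPM, were all below its controls. The highest member per length in caffeine, on chromosome 4 (207613 to 208719), had 542, 827 and 928 CPM in controls and 2718, 2873 and 2704 CPM in caffeine. In ethanol it was at 463, 383 and 311 CPM. Both of these abundant members were called lower in ethanol, while the third per length in caffeine, on chromosome 5, was called higher with 434, 376 and 330 CPM against 223, 191 and 170 in controls.

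Heat and MMS were close to the controls for these genes by choice, and the values within that band are a description of the chosen genes. In heat, r ran from -0.57 to 0.58 with a median of -0.07, and in MMS from -0.57 to 0.58 with a median of 0.12. In edgeR, 10 members were called higher in heat and 16 lower, against 32.3% and 38.7% of all tested genes. In MMS 15 were called higher and 7 lower, against 35.7% and 35.9%. Nothing is read from these counts, since the rule used the same libraries. KLLA0B09064g was among those called higher in MMS, at 1.47-fold, and KLLA0F00682g among those called higher in heat, at 1.41-fold. None of the 62 was called at 2-fold in either stress, which follows from the limits set. Of all tested genes, 11.8% were called 2-fold higher and 13.6% lower in heat, and 9.95% and 14.1% in MMS. A group mean within the band did not require each library to be there. Of the members, 52 were within 0.58 in each heat library and 38 in each MMS library. In MMS, replicate 1 put 11 members above the band and 2 below it, replicate 2 put 2 above and 6 below, and replicate 3 put 6 above and 3 below. Members that held all limits in every caffeine, heat and MMS library numbered 23. Without MMS replicate 3 the rule gave 56 genes, 52 of them members.

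After scaling of the libraries, each of the 3 caffeine libraries exceeded all control, heat and MMS libraries in 62 of 62 members, and 15.8% of all tested genes met that criterion. Against the controls alone 38.3% of all tested genes did. Nothing is read from the members' count, since the rule used these libraries. Every caffeine library also exceeded the ethanol libraries, and so all 12 other libraries, in 57 members, as it did in 12% of all tested genes. That count is not read either, since the rule set the members' caffeine, control, heat and MMS levels. In the remaining 5, at least 1 ethanol library reached into the caffeine range, and in 2 members the scaled ethanol mean was above the caffeine mean. One of those 2, on chromosome 5 with 663 coding bases, had 92.9, 224 and 136 CPM in ethanol and 136, 108 and 120 CPM in caffeine, so its ethanol libraries were spread widely. The other, on chromosome 5 with 1287 coding bases, had 86.6, 111 and 94.8 CPM in ethanol and 98.3, 84.5 and 90.8 CPM in caffeine. The groups overlapped in both genes.

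In the held-out ethanol comparison the members split. Of 62 tested, 27 were called higher than control (43.5%) and 16 lower (25.8%) by edgeR at an adjusted p under 0.05, and 19 were not called. By control level, the 22 members under 20 CPM held 8 higher and 5 lower, the 33 at 20 to 100 CPM held 16 and 8, and the 7 above that held 3 and 3. Over all 5124 tested genes 33.1% were called higher and 32.3% lower. The members' shares are near this background, with more called higher and fewer called lower, and no test of that difference was made. Their median log2 change was 0.13, against 0.00 for all tested genes. At least 2-fold, 8 members were higher and 6 lower, where the background was 7.83% and 10.9%. By library, the median log2 change of the members was 0.23, 0.16 and 0.04 in ethanol replicates 1, 2 and 3. Among the 19 members with a caffeine r of at least 1.5, 7 were higher and 6 lower in ethanol, and among the other 43, 20 were higher and 10 lower.

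**Figure D3:**
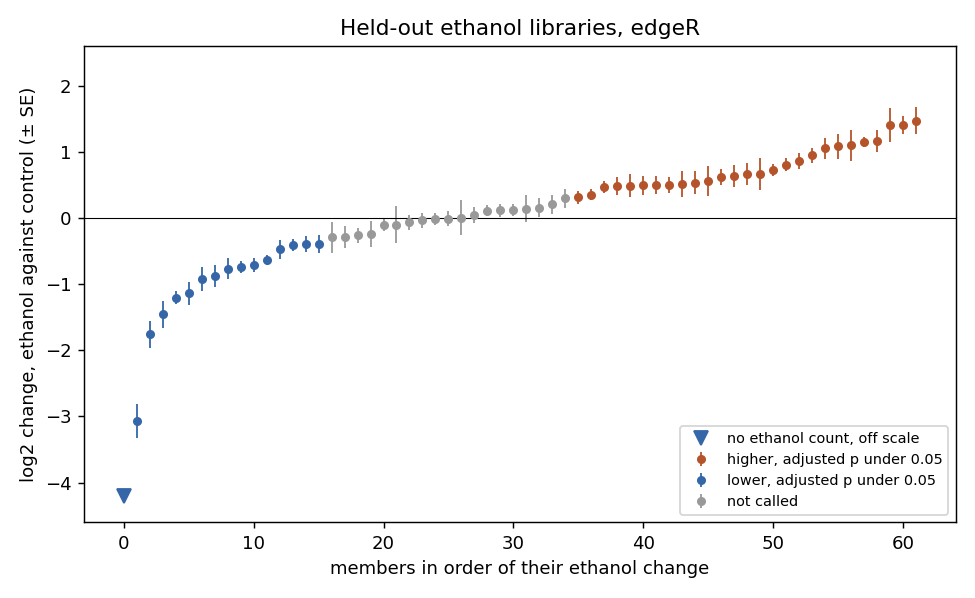
Log2 change in ethanol against control with its SE (edgeR, 3 libraries against 3) for the 62 members in order of that change. Calls at an adjusted p under 0.05 cover 27 members above 0 and 16 below it. The triangle stands for a member with 0 ethanol counts whose fitted change is off the scale.

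The members highest in ethanol were KLLA0F19624g and KLLA0B07469g. KLLA0F19624g (chromosome 6, 1817206 to 1818435, minus strand) had 57.1, 45.1 and 39.4 CPM in controls and 122, 256 and 187 CPM in ethanol. All ethanol libraries were above all controls but far apart from each other. After scaling the gene was 2.77-fold higher (log2 change 1.47 ± 0.20 SE, edgeR adjusted p = 2.16e-05). In caffeine it was at 315, 233 and 326 CPM, in heat at 79.8, 66.1 and 66.5 CPM and in MMS at 76.9, 91.3 and 98.4 CPM. Ethanol replicate 2 thus reached into its caffeine range in raw CPM, while after scaling every caffeine library lay above every ethanol library. The scaled fold was 1.20 in heat (edgeR adjusted p = 0.246) and 1.06 in MMS (edgeR adjusted p = 0.702), so KLLA0F19624g was called in neither.

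KLLA0B07469g (chromosome 2, 645646 to 648282, minus strand) had 25.3, 27.7 and 23.2 CPM in controls and 80.8, 119 and 88.0 CPM in ethanol. After scaling it was 2.66-fold higher in ethanol (log2 change 1.41 ± 0.14 SE, edgeR adjusted p = 1.12e-06). In caffeine the gene stood at 128, 139 and 150 CPM, above every ethanol library. In heat it had 27.7, 22.0 and 19.4 CPM and in MMS 39.5, 34.6 and 26.0 CPM. After scaling these were 0.720-fold and 0.733-fold the control level, both among the lower calls of the chosen genes.

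The lowest member in ethanol was KLLA0A08338g (chromosome 1, 736461 to 738761, plus strand), with 0 counts in all 3 ethanol libraries. It had 20.9, 34.5 and 35.0 CPM in controls, 89.9, 78.9 and 86.4 CPM in caffeine, 50.8, 51.1 and 50.7 CPM in heat and 37.4, 53.9 and 48.0 CPM in MMS. Against a floor of 3 counts per ethanol library the gene was at least 392-fold lower. It lies over its whole length of 2301 bases inside a gene on the opposite strand, which had 186 to 199 CPM in controls and 280 to 329 CPM in ethanol. Its 0 values coincide with the change of counting method, and the part of that change was not tested. None of the sources used here says whether the other files were counted by strand, so its level in any group is uncertain. In 3 other members the overlap with a gene on the opposite strand was 4 to 6 bases, and none of these was lower in ethanol. Among the 58 members that overlap no gene, 24 were higher and 15 lower.

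Genes chosen by the same kind of rule for other stresses gave other values in ethanol. Of 180 K. lactis genes raised in heat and flat in caffeine and MMS, 11 (6.11%) were called higher in ethanol and 125 (69.4%) lower. Their median log2 change was -0.72. Of 72 raised in MMS and flat in caffeine and heat, 59 (81.9%) were higher and 1 (1.39%) lower, with a median of 0.95. Over all tested K. lactis genes the shares were 33.1% and 32.3%. The caffeine members, with 27 and 16 of 62 (43.5% and 25.8%), lay between these lists. All 3 lists share the control libraries and the ethanol libraries, and the differences between the lists were not tested. In Kluyveromyces marxianus Km31, whose libraries were not used to choose the K. lactis members, the same rule on its own libraries gave 110 genes. There 94 were called higher in ethanol and 6 lower, with a median log2 change of 0.90, against 37.6% and 34.1% of the 5098 tested genes of that species. The IDs of the species are not paired, so no gene was followed from one yeast to the other. The difference between the species was not tested.

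**Figure D4:**
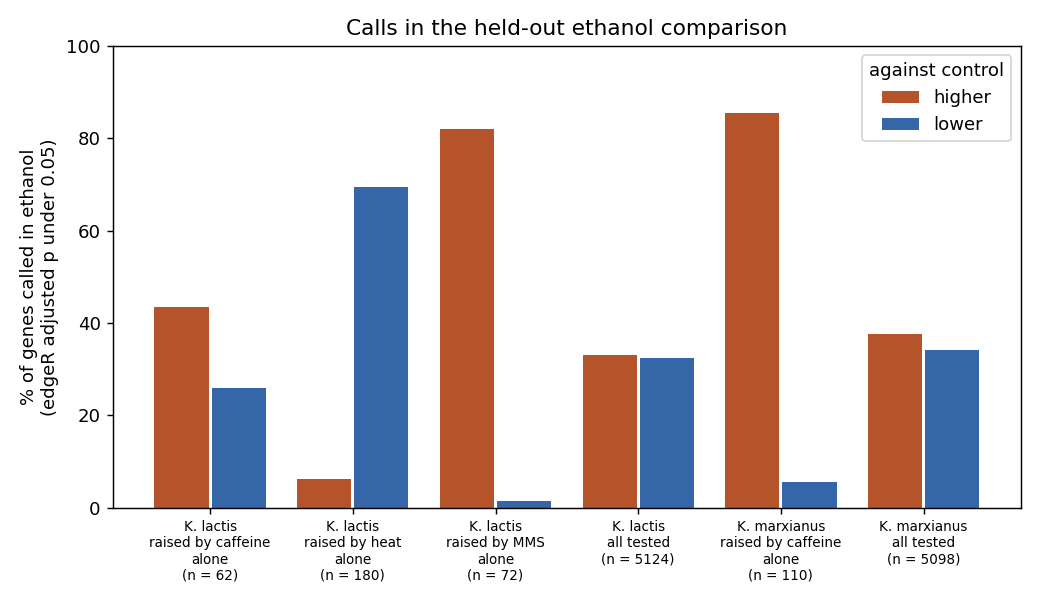
Share of genes called higher or lower in ethanol against control (edgeR adjusted p under 0.05), for genes raised by 1 stress and flat in the others and for all tested genes of each species. The K. lactis caffeine genes, at 43.5% and 25.8%, stand nearer to all tested K. lactis genes, at 33.1% and 32.3%, than the other lists do.

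The members were spread over all 6 chromosomes and were of ordinary length. Their median coding length was 1288.5 bases against 1266 for all tested genes. None had more than 1 coding part, while 209 of the 5124 tested genes (4.08%) did. On the plus strand were 27 members (43.5%, against 49.3%). By chromosome, 12 lay on chromosome 2 (19.4%, against 12.3% of tested genes) and 4 on chromosome 3 (6.45%, against 16.4%). Within 20 kb of the last annotated base or the first base of a chromosome were 2 members (3.23%, against 1.37%). These shares are descriptions and none was tested.

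In 2 places, members are direct neighbours along a chromosome, so 4 of 62 (6.45%) stood next to another member, where 2.40% of all tested genes stood next to a member. The pair on chromosome 4 (207613 to 210388) is on the same strand with 985 bases between the genes. Its caffeine r values were 1.40 and 1.94, and its ethanol r values were -1.45 and 0.66, so the neighbours lay on opposite sides of the control in ethanol. The pair on chromosome 5 (874102 to 879048) is also on the same strand, 1371 bases apart, and both of its genes lay below the control in ethanol, with r of -1.14 and -0.46. Counting every gene that met the caffeine limits, 13 members (21.0%) had such a neighbour, against 13.9% of all tested genes. The 62 members were themselves 16.2% of the 383 genes with an r of at least 1 and 10 CPM in caffeine. Of the 383, 58 were flat in MMS and outside the band in heat, 96 were flat in heat and outside it in MMS, and 167 were outside it in both.

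Replicate spread among the members was like that of all tested genes in MMS and in ethanol and somewhat wider in the other groups. The median coefficient of variation over 3 libraries was 8.76% in controls (7.59% for all tested genes), 6.70% in caffeine (5.11%) and 6.80% in heat (5.68%). It was 12.6% in MMS (13.7%) and 16.8% in ethanol (16.4%), where the member with 0 counts has no value.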

How the data were processed

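Poly(A)-captured RNA of 30 libraries was counted, 3 per group for 2 species. The authors deposited unnormalized read counts, 1 per annotated feature. TopHat and HTSeq are named, with no version, per the submitters' processing notes; the ethanol files were counted by featureCounts 1.6.3 on exon features, per the file headers. Parts of a gene were summed to 5320 K. lactis and 5207 K. marxianus genes. Reads on no feature and ambiguous reads stayed out of totals. Each species' 15 libraries entered 1 quasi-likelihood model (edgeR 4.0.16 under R 4.3.3) with group as the only term, after filterByExpr and TMM scaling, which left 5124 and 5098 genes. Tests were 2-sided, with Benjamini-Hochberg adjustment over all tested genes, and SE derives from the F statistic. The floor of 3 counts covers counting error only. All 62 members passed the filter. The edgeR and DESeq2 1.42.0 steps were tested on simulated data.

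The members and lists were chosen with earlier results of these data known. IDs are given for the members with the largest caffeine r (2), for the one that carries a name, and for the highest (2) and lowest (2) in ethanol among those changed 2-fold with libraries on 1 side of all controls. Other members were described after their values were seen. Replicates are biological by the series text. Alternatives were RLE scaling, DESeq2, no filter, the 6 libraries compared, the replicate number as a block, a 2-fold minimum, members without overlap, each replicate left out, and other limits of the rule. A match to K. marxianus genes was not made.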

Additional observations from a re-analysis of the deposited data

How the results depend on the processing

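The 27 higher and 16 lower calls of members in ethanol stayed within 1.5 times under RLE scaling, DESeq2, no filter, the 6 libraries alone and members without overlap, at 24 to 27 higher and 14 to 17 lower. Leaving out 1 control or ethanol library gave 23 to 27 higher and 15 to 17 lower, with a median log2 change of 0.10 to 0.18. With a 2-fold minimum, 8 were higher and 6 lower. With the replicate number as a block, 27 were higher and 17 lower, with a median of 0.13. The deviations of same-numbered control and ethanol libraries correlated at -0.23, -0.21 and 0.15, so the numbers were not taken to pair the libraries of this comparison. Those of same-numbered caffeine and heat libraries correlated at 0.11, 0.31 and 0.21. For same-numbered ethanol and MMS libraries the values were 0.008, 0.56 and 0.32, and differently numbered ones ran from -0.43 to 0.22. A further pair of alternatives was chosen after seeing the data: members picked without MMS replicate 3 gave 24 and 16, and a fit without that library gave 27 and 18. The rule gave 54 and 57 members with 0.1 or 5 CPM added and 58 with TMM-scaled CPM, of which 50, 48 and 56 were members. It gave 51 to 67 with 1 library left out, but 19 with the band narrowed to 0.3 and 19 with a caffeine r of 1.5. KLLA0B09064g, not called in ethanol, ran from -0.00 to 0.21 (log2) over the alternatives, with adjusted p of 0.278 to 0.983. The other members given by ID kept their ethanol call in every alternative run, with adjusted p up to 0.00132. All alternatives started from the same counts, so none could change the 0 ethanol counts of KLLA0A08338g. The match of members to K. marxianus genes was not run. MFA1 rests on 16 to 74 ethanol counts, which limits its fold.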
